A study of Mus musculus with 2 samples.

Results

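The genes described here are 10 genes of fat cells and of lipid storage, taken by symbol from the 24319 rows of each of 2 deposited gene lists: Pparg, Adipoq, Lpl, Cd36, Fabp4, Fabp5, Gpd1, Plin1, Cidec and Car3. All 10 were found, and all 10 reached 1 FPKM (a level per transcript length and sequencing depth: fragments per 1 kb in every 1000000 that mapped) in at least 1 library. They were chosen because of how they differed between these libraries, so every value below is a description and none is a test. The libraries were made from lymphatic endothelial cells (LECs) of the skin of C57BL/6 mouse embryos at E15.5 (embryonic day). The control library was labelled wild type. The other was labelled Dot1l knockout, with the deletion described as endothelial. Dot1l encodes a methyltransferase that acts on a lysine of histone H3. Both libraries were made from RNA pooled from 2 to 3 biological replicates, so each genotype has 1 library and no spread between embryos is known. The driver of the deletion, the deleted exons and the way the cells were purified are not stated in the labels, which also describe cultured dermal LECs.

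White fat cells store fatty acids as triglyceride in a large lipid droplet. The nuclear receptor PPARG drives their differentiation and switches on many of the other genes of this group. Lipoprotein lipase releases fatty acids from circulating lipoproteins, CD36 helps them across the membrane, and the small cytosolic proteins FABP4 and FABP5 carry them inside the cell. GPD1 makes the glycerol 3-phosphate backbone of triglyceride, while perilipin 1 and CIDEC coat and enlarge the droplet. Not all of these genes are private to fat cells. Capillary endothelium makes FABP4, FABP5 and CD36, macrophages make LPL, CD36, FABP5 and PPARG, keratinocytes make FABP5, and slow skeletal muscle makes carbonic anhydrase 3.

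In the knockout-labelled library, 8 of the 10 genes were at least 2-fold lower than in control, none was at least 2-fold higher, and 2 lay within 2-fold. As background, 13296 genes reached 1 FPKM in at least 1 library. Of these, 15.49% were lower by 2-fold or more and 16.8% were higher by 2-fold or more. Because the genes were picked from this contrast, nothing is read from the excess over that background. Differences are given as log2(FPKM + 1), knockout-labelled minus control, and genes are called lower, higher or within 2-fold on that scale. A fold given for a single gene is the ratio of its deposited FPKM, which can exceed 2 for a gene that lies within 2-fold on the log2(FPKM + 1) scale. The median difference of the 10 genes was -2.43, beside a median of 0.00 for all 13296 genes. When both libraries were scaled to sum to 1000000, 9 of the 10 were at least 2-fold lower, and of all genes 3330 were lower and 1900 higher instead of 2060 and 2231. That rescaling shifted the median of all genes to -0.33.

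**Figure D1:**
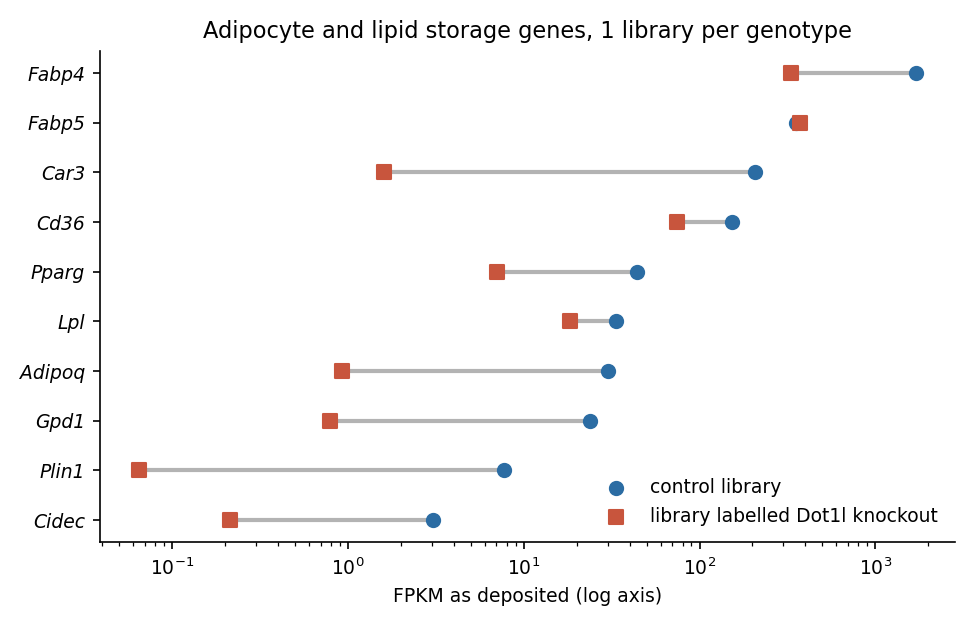
Deposited FPKM (log axis) of the 10 genes in the control library (blue circles) and the library labelled Dot1l knockout (red squares), ordered by the control value, 1 library per genotype with no error bars. Fabp5 has nearly the same value in both libraries, while Adipoq, Gpd1, Plin1, Cidec and Car3 lie under 2 FPKM in the knockout-labelled library.

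The 10 genes divided into genes that remained well measured in both libraries and genes that were nearly at the floor of the knockout-labelled library. In control no gene of the group was under 2 FPKM. In the knockout-labelled library 5 were, namely Adipoq, Gpd1, Plin1, Cidec and Car3, and 4 of these were under 1 FPKM. Pparg, Fabp4, Fabp5, Lpl and Cd36 stayed between 7.04 and 373 FPKM. The span from the lowest to the highest of the 10 genes was 558-fold in control and 5776-fold in the knockout-labelled library. Added up, the 10 genes made 2556 FPKM in control, which was 0.615% of that library's summed FPKM, and 806 FPKM in the other, which was 0.152%. Fabp4 alone gave 66.5% of the sum in control and 41.0% in the knockout-labelled library, where Fabp5 gave the larger share with 46.2%.

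Markers of LECs and of other cells were measured in both libraries and differed between them, some lower and some higher in the knockout-labelled library. All 25 fat cell precursor and dermal fibroblast genes had values in control, and 24 were at least 2-fold lower in the knockout-labelled library, with a summed level of 5482 FPKM against 1228. The collagen genes Col3a1 (1481 and 391 FPKM) and Col1a2 (774 and 222) were the most abundant of them. Macrophage markers summed to 73.1 FPKM in control and 4941 in the knockout-labelled library, and mast cell markers to 113 and 13268. In control 2 of the 20 macrophage markers, C1qc and Lyz1, were listed at 0, and all 19 that reached 1 FPKM were higher by 2-fold or more in the knockout-labelled library. The mannose receptor Mrc1 was 31.1 and 1211 FPKM and the lysozyme Lyz2 was 13.5 and 657. The mast cell proteases Cma1 and Cpa3 were 46.2 and 5706 FPKM and 35.8 and 4211 FPKM. Pan-endothelial genes were lower by 2-fold or more in 14 of 16 cases (sums of 1539 and 351 FPKM), with Cdh5, the cadherin of endothelial junctions, at 227 and 34.4 FPKM. Of 13 lymphatic genes 10 were lower by 2-fold or more, 2 were higher and 1 lay within 2-fold. The lymphatic fate factor Prox1 was 59.3 and 13.1 FPKM and Mmrn1, the most abundant in control, was 669 and 128, whereas Lyve1, a hyaluronan receptor, was 526 and 552, the integrin Itga9 was 20.5 and 61.7 and the transcription factor Maf was 36.6 and 192. What part these cells had in the differences was not tested, and in bulk RNA fewer cells of a type and less RNA per cell cannot be told apart. Dot1l itself was 5.86 FPKM in control and 10.4 in the knockout-labelled library. The value covers the whole gene and does not check the label, because the deleted exons are not known.

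Pparg, the nuclear receptor that commands fat cell differentiation, was 44.2 FPKM in control and 7.04 in the knockout-labelled library. It was 6.28-fold lower, a log2 difference of -2.49. Only 1.34% of the 13296 genes had a lower difference. PPARG binds DNA together with a partner of the RXR family, and the genes of these partners did not share one direction. Rxra was 12.6 FPKM in control and 37.1 in the knockout-labelled library. Rxrb was 8.12 and 8.07, and Rxrg was 1.91 and 0.363. The ratio of Pparg to Rxra, which does not depend on how the libraries were scaled, was 3.51 in control and 0.190 in the other. Macrophages use Pparg too, and their part in its values was not tested.

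Adipoq encodes adiponectin, a hormone that is made nearly only by fat cells. It was 30.2 FPKM in control, the value of rank 2488, and 0.926 FPKM in the knockout-labelled library. The ratio was 32.6-fold and the log2 difference -4.02. At the depth estimated from the low values, about 10400000 and 9260000 fragments, these levels rest on about 341 and 9.4 fragments. Counting error alone then gives the ratio an exact 95% interval of 17.6 to 74.7. Intervals of this kind use the estimated fragments rounded to whole numbers and cover counting error only, not the spread between embryos. Per FPKM of Pparg there was 0.682 FPKM of Adipoq in control and 0.131 in the knockout-labelled library, so Adipoq was lower by more than Pparg.

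Fatty acid uptake was represented by Lpl and Cd36, which differed least among the genes that were lower. Lpl, the lipase that acts on the capillary wall, was 33.7 FPKM in control and 18.4 in the knockout-labelled library, 1.83-fold lower. Cd36, the fatty acid translocase and scavenger receptor, was 153 FPKM in control and 74.1 in the knockout-labelled library, 2.07-fold lower. With log2 differences of -0.84 and -1.04 they lay just outside and just inside the 2-fold threshold, and Lpl passed it when both libraries were scaled to sum to 1000000 (-1.20). The ratio of Cd36 to Lpl was 4.55 in control and 4.02 in the other library. Pecam1, an endothelial adhesion molecule, was 218 and 49.2 FPKM, so Cd36 per unit of Pecam1 went from 0.704 in control to 1.5 in the knockout-labelled library. The endothelial gene chosen matters here, since the 16 pan-endothelial genes were lower by 1.79-fold (Eng) to 15.7-fold (Ramp2). Relative to the median difference of the pan-endothelial genes, Lpl and Cd36 were higher by 1.17 and 0.97 on the log2 scale. Relative to the median of other fat cell genes, Lpl and Cd36 differed by 0.18 and -0.02. The median of capillary fat handling genes was -1.14. Macrophages make Lpl and Cd36 too. Per FPKM of the macrophage marker Csf1r (1.10 and 152 FPKM), Cd36 was 139 in control and 0.489 in the knockout-labelled library. What part endothelial cells and macrophages had in these values was not tested.

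Fabp4 was the most abundant gene of the group in control, and its close relative Fabp5 barely differed between the libraries. Fabp4, the fatty acid carrier of fat cells and capillary endothelium, was 1699 FPKM in control, the value of rank 16 in that library, and 330 FPKM at rank 200 in the knockout-labelled library. It was 5.15-fold lower, with a log2 difference of -2.36. Fabp5, the epidermal fatty acid carrier, was 353 FPKM in control and 373 in the knockout-labelled library, a log2 difference of 0.08, which became -0.27 when both libraries were scaled to sum to 1000000. The ratio of Fabp4 to Fabp5 was therefore 4.82 in control and 0.886 in the other library. Per unit of Pecam1, Fabp4 was 7.81 in control and 6.71 in the knockout-labelled library, a 1.16-fold difference. This depends on the endothelial gene chosen. The ratios of control to knockout-labelled FPKM of the 16 pan-endothelial genes ran from 1.79 (Eng) to 15.7 (Ramp2). Keratinocyte genes, which mark another source of Fabp5, summed to 229 and 105 FPKM, led by Krt15 (58.8 and 31.3) and Krt5 (37.7 and 19.9). Markers of macrophages, which also make Fabp5, differed the other way, with sums of 73.1 and 4941 FPKM. Per FPKM of Csf1r, Fabp5 was 321 in control and 2.46 in the knockout-labelled library. What part either cell type had in the values of Fabp5 was not tested. Fabp5 has a processed pseudogene, Fabp5l2, which is not used here, and reads shared between them are not securely assigned.

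Gpd1, the cytosolic glycerol 3-phosphate dehydrogenase, was 23.9 FPKM in control and 0.792 in the knockout-labelled library, 30.1-fold lower. The latter rests on about 19.5 fragments, and the counting interval of the ratio was 18.9 to 48.5. Its relatives did not share this difference: Gpd1l was 7.29 and 8.85 FPKM, and the mitochondrial enzyme Gpd2 was 9.41 and 7.92. Per FPKM of Gpd1l there was 3.27 FPKM of Gpd1 in control and 0.0895 in the knockout-labelled library. An antisense gene overlaps Gpd1 and another overlaps Pparg in the GENCODE annotation. Neither is listed in the files, and whether counting used strand is not stated.

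Both droplet coat genes were low in control and near the floor in the other library. Plin1, the perilipin of fat cells that guards the droplet against lipases, was 7.76 FPKM in control and 0.0645 in the knockout-labelled library. The latter corresponds to only about 1.6 fragments, so the ratio of 120 carries a counting interval of 25.8 to 784. Cidec, which fuses small droplets into large ones, was 3.05 FPKM in control and 0.214 in the knockout-labelled library, or about 48 and 3 fragments, a ratio of 14.3 with a counting interval of 4.61 to 71.8. On the log2(FPKM + 1) scale, which understates changes of low genes, the differences were -3.04 and -1.74. Their relatives are compared in the plot of paralogs. Plin2, the droplet coat of most other cells, was 20.9 FPKM in control and 98.1 in the knockout-labelled library, and Plin3 was 24.4 and 62.3. The ratio of Plin1 to Plin2 was 0.371 in control and 0.000658 in the other library. Plin4 (1.57 and 0.195 FPKM), Plin5 (1.06 and 0.494) and Cidea (2.65 in control, listed at 0 in the other) had lower values, and all 3 are best known from fat, muscle or brown fat.

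Car3 showed the greatest difference of the group. It encodes a cytosolic carbonic anhydrase that is abundant in fat and in slow muscle. Car3 was 207 FPKM in control, at rank 277, and 1.61 FPKM in the knockout-labelled library, at rank 11455. The latter rests on about 22 fragments, and the ratio of 129 had a counting interval of 85.2 to 207. The log2 difference of -6.32 was higher than that of only 0.0226% of the 13296 genes. Skeletal muscle genes, the other known source, summed to 88.9 FPKM in control and 44.3 in the knockout-labelled library, with a median difference of -0.85 over 18 genes. Actc1, an actin of embryonic muscle, was 14.1 and 2.15 FPKM and the slow muscle troponin Tnnt1 was 9.62 and 11.6. Other slow muscle genes of the list were low in control and lower in the knockout-labelled library. Tnni1 was 1.002 and 0.126 FPKM and Tnnc1 was 2.01 and 1.64. Myh7, which did not reach the minimum in either library, was 0.508 and 0.0556. What part muscle had in the value of Car3 was not tested. Among 6 other carbonic anhydrases at 1 FPKM or more, 1 was at least 2-fold lower (Car4, 4.19 and 0.773 FPKM), 1 was higher (Car8, 0.330 and 19.6) and 4 lay within 2-fold on the log2(FPKM + 1) scale: Car2 (11.6 and 17.0), Car13 (11.4 and 5.43), Car12 (1.66 and 0.682) and Car5b (1.54 and 0.931). As ratios of FPKM, Car13 was 2.11-fold and Car12 2.43-fold lower.

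**Figure D2:**
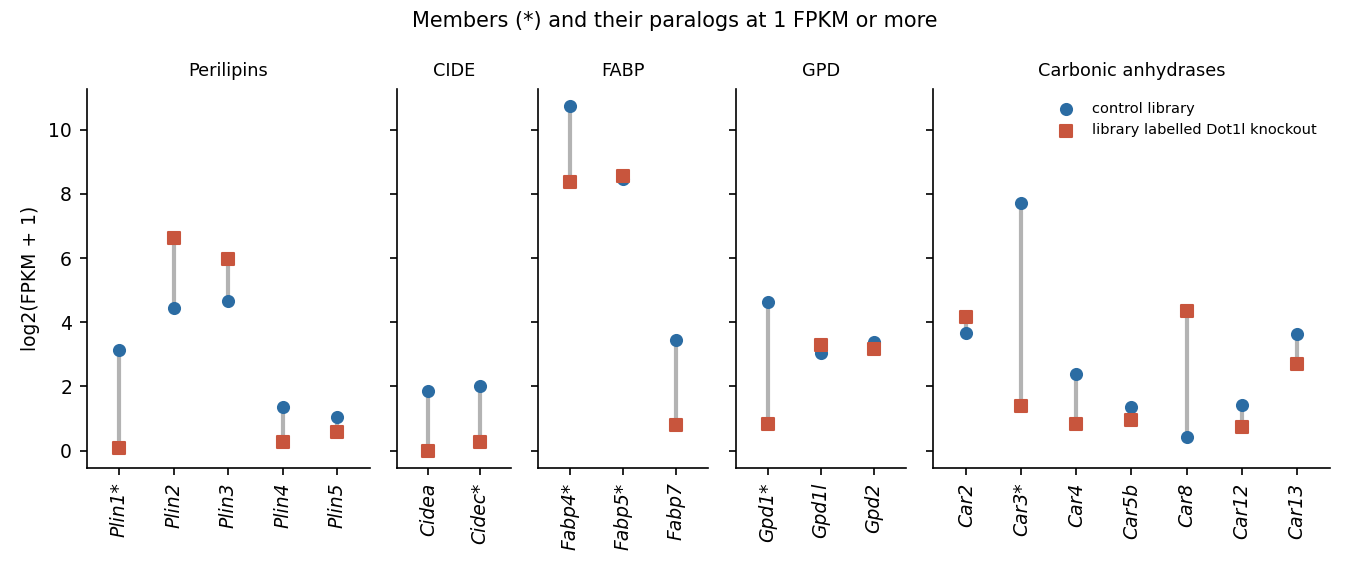
Levels as log2(FPKM + 1) of the genes described here (marked by a star) and their relatives at 1 FPKM or more, by gene family, in the control library (blue circles) and the library labelled Dot1l knockout (red squares). Plin1 and Plin2 differ in opposite directions, Fabp5, Gpd1l and Gpd2 have nearly equal values in both libraries, and Car3 spans the greatest distance.

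The distribution of differences over all genes puts these values in place. Only 0.0677% of the 13296 genes had a lower difference than Adipoq, 0.105% a lower one than Gpd1 and 0.444% a lower one than Plin1. For Fabp4 the share was 1.76%, for Cidec 5.42%, for Cd36 14.7% and for Lpl 18.9%. Fabp5 lay in the middle, with 53.7% of genes below it. Since the genes were chosen from these values, the shares describe where they lie and support nothing more.

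**Figure D3:**
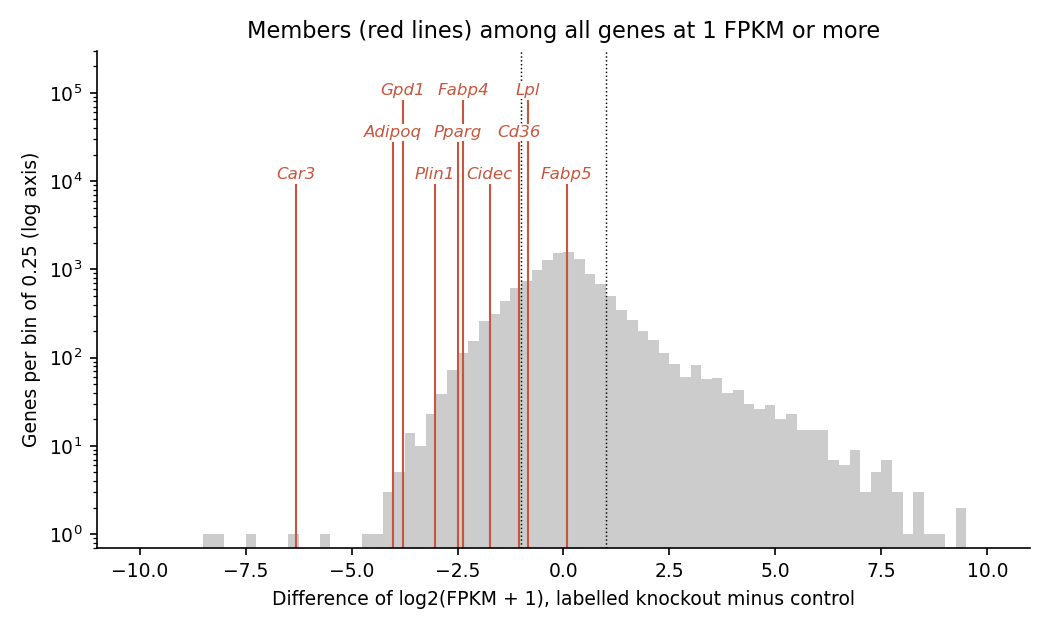
Histogram (grey, log axis) of the log2(FPKM + 1) difference, knockout-labelled minus control, for 13296 genes at 1 FPKM or more, in bins of 0.25, with the 10 genes as red lines whose heights carry no value and dotted lines at 2-fold. Car3 at -6.32, Adipoq at -4.02 and Gpd1 at -3.79 lie in the far left tail, and Fabp5 at 0.08 lies at the peak.

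Other genes that mark fat cells were lower in part. The list without the 10 genes had 24 genes, of which 20 reached 1 FPKM, 11 were at least 2-fold lower, none was at least 2-fold higher and 9 lay within 2-fold, with a median difference of -1.02. Thrsp, a regulator of fatty acid synthesis in fat and liver, was 9.31 FPKM in control and 0.126 in the knockout-labelled library. The galectin Lgals12 was 1.81 and 0.0844. Lep, the hormone leptin, was listed at 0 in both libraries, and Cfd, which encodes adipsin, was 0.686 in control and listed at 0 in the other. The 2 highest genes of the list, Acly (42.3 and 53.3 FPKM), which makes cytosolic acetyl-CoA, and the adiponectin receptor Adipor2 (34.8 and 28.3), are used by many cells and lay within 2-fold. Summed over the list, the level was 197 FPKM in control and 146 in the other. With a pseudocount of 5, the list's count of genes at least 2-fold lower was 1.

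The transcription factors that act beside Pparg did not share one direction. Of 28 measured, 6 were lower by 2-fold or more, 7 higher to that extent and 15 within 2-fold, with a median of -0.01. Factors of fat cell precursors were among the lower ones: Ebf1 was 28.4 and 3.15 FPKM, Ebf2, a factor of brown fat precursors, 5.57 and 0.183, and Zfp423 8.33 and 2.44. Cebpa, the partner of PPARG in mature fat cells, had the same level in both libraries, 8.25 FPKM in control and 8.23 in the other. Cebpb, which acts early in differentiation and is also a macrophage and stress factor, was 13.1 and 50.9, and Egr2 was 13.1 and 51.7. Cebpd (52.4 and 35.4) and the corepressor Ncor1 (56.1 and 48.4) were the most abundant in control and lay within 2-fold.

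Genes of the lipid droplet and of lipolysis were divided. Among 15 measured genes 5 were lower by 2-fold or more, 4 higher to that extent and 6 within 2-fold, with a median of -0.46. Mgll, which completes triglyceride breakdown, was 15.47 FPKM in control and 2.18 in the knockout-labelled library, and G0s2, an inhibitor of the triglyceride lipase, was 29.7 and 7.15. The hormone-sensitive lipase Lipe was 6.96 and 2.97. The hypoxia-induced droplet protein Hilpda was 3.91 and 31.4, which together with Plin2, Plin3 and Hsd17b11 (11.1 and 37.8) made up the higher genes. The macrophage lipid handling list, which shares Plin2, Mgll and other genes with the pathway lists, had 12 of 20 genes at least 2-fold higher, with the lipoprotein gene Apoe at 145 and 1239 FPKM.

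Triglyceride synthesis genes mostly lay within 2-fold: 18 of 22 did, 2 were lower and 2 higher, with a median of -0.03 and summed levels of 161 and 162 FPKM. The acyltransferases Agpat6 (27.0 and 18.0) and Agpat3 (20.1 and 21.6) were the most abundant. Dgat2, which makes the last step in fat, was 2.60 and 2.52. The 2 lower genes, the glycerol channel Aqp7 (2.16 in control, listed at 0 in the other) and Pck1 (1.72 and 0.0446), an enzyme that feeds glycerol synthesis, are both abundant in fat cells. The higher ones were Aqp3 (0.685 and 5.89) and Dgat1 (1.44 and 4.96).

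Uptake and activation genes leaned lower, with 8 of 18 lower by 2-fold or more, 2 higher and a median of -0.86. Cav1 and Ptrf, which build the membrane pits called caveolae in fat cells and endothelium, were 822 and 104 FPKM and 223 and 48.1 FPKM. Gpihbp1, which anchors lipoprotein lipase on capillary endothelium, was 40.4 and 14.3, so that the ratio of Lpl to Gpihbp1 was 0.833 in control and 1.29 in the other library. Lrp1, a lipoprotein receptor of many cells, was 9.29 and 34.4. Among 8 other carrier proteins of fatty acids and retinoids 6 were at least 2-fold lower, including Rbp7 (33.1 and 3.88 FPKM), Crabp1 (74.7 and 23.6) and the nervous system carrier Fabp7 (9.83 and 0.740), while Dbi (209 and 198) and Scp2 (41.2 and 56.5) lay within 2-fold. The median of these carriers was -1.62.

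Adipokines, which are factors secreted by fat tissue among others, and their receptors were counted together and were mostly lower. Of the 19 genes 12 were lower by 2-fold or more, the receptors Lepr and Cdh13 among them, and 2 were higher. The median was -1.21. Rarres2, which encodes the chemoattractant chemerin, was 48.1 and 6.72 FPKM and C1qtnf3, a relative of adiponectin, 33.7 and 3.48. Metrnl was 2.43 and 17.4, and the adiponectin receptor Adipor1 was 34.8 and 39.0. Brown fat was represented weakly. Ucp1, the uncoupling protein that defines it, was 0.270 FPKM in control and 0.296 in the knockout-labelled library. Of 11 brown fat genes at 1 FPKM or more 6 were lower, such as Cox7a1 (15.3 and 3.37), which muscle also makes, 1 was higher, Acot11 (0.650 and 4.36), and 4 lay within 2-fold, such as Elovl6 (13.2 and 7.77).

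Set beside the other cells in the libraries, the 10 genes did not all follow one list. The medians were -2.01 for pan-endothelial genes, -1.96 for fat cell precursor and fibroblast genes, -2.04 for lymphatic genes, -2.55 for pericyte and smooth muscle genes, -1.14 for genes of capillary fat handling and -0.98 for keratinocyte genes. They were 5.76 for macrophage, 5.17 for mast cell and 1.48 for macrophage lipid handling genes. Fabp4 (-2.36) and Pparg (-2.49) were close to the medians of several lists. They lay a further -0.35 and -0.48 below the endothelial median on the log2 scale, and -0.40 and -0.53 below the fibroblast median. The pericyte and smooth muscle median of -2.55 was nearer to both genes. From the median of the other fat cell genes, -1.02, they differed by a further -1.34 and -1.47. Car3, Adipoq and Gpd1 were lower than the fibroblast median by a further -4.36, -2.05 and -1.83, and Fabp5 was higher than it by 2.04. Mcam (74.1 and 11.7 FPKM) and the smooth muscle actin Acta2 (56.0 and 6.27) were the most abundant genes of the pericyte and smooth muscle list. Those of the capillary fat handling list were Sgk1 (95.04 and 42.5) and Nrp1 (90.5 and 67.4). In macrophage lipid handling the protease Ctsl (107 and 180) came after Apoe. For the 4 measured platelet genes the median was 2.80, with the highest levels in the chemokines Pf4 (2.92 and 1361) and Ppbp (0.673 and 18.5). For the 6 measured erythroid genes it was -0.36, with the highest levels in the globins Hba-a1 (174 and 25.1) and Hbb-b1 (130 and 76.6), which have near-identical copies.

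**Figure D4:**
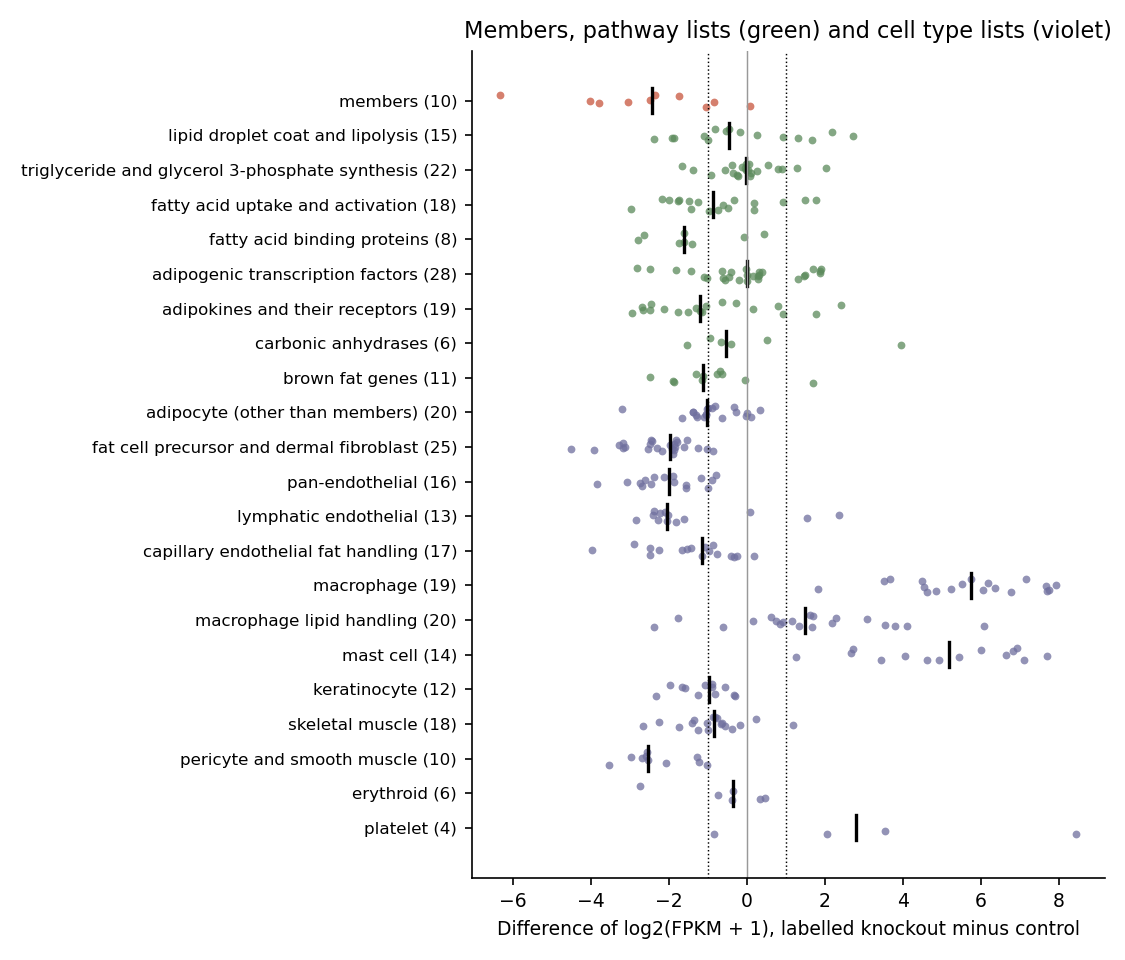
Differences of log2(FPKM + 1), knockout-labelled minus control, for the 10 genes (red), the genes of 8 pathway lists (green) and of 13 cell type lists (violet), with black bars at each median, the number of genes in brackets and dotted lines at 2-fold. The 10 genes have a median of -2.43, pan-endothelial genes -2.01, triglyceride synthesis genes -0.03 and macrophage genes 5.76.

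Promoter sequence was at hand for 5 of the 10 genes in RefSeq's GRCm38.p6 tables, another build than mm9, which the submitters name. The 250 bases before the start were searched on both strands for AGGTCANAGGTCA, the repeat that PPARG with RXR binds, for its half-site AGGTCA, for TTGCNNAA, a form of the C/EBP site, and for TATAAA. Matches of the half-site can lie within the repeat. The sequences of 2 genes near the floor of the knockout-labelled library are shown beside that of Cd36, which differed by much less. Capitals mark matches. The Adipoq window lies at chr16:23146286-23146535 on the plus strand, that of Plin1 at chr7:79732777-79733026 on the minus strand and that of Cd36 at chr5:17835897-17836146 on the minus strand, each written 5′ to 3′ along the gene.
Adipoq: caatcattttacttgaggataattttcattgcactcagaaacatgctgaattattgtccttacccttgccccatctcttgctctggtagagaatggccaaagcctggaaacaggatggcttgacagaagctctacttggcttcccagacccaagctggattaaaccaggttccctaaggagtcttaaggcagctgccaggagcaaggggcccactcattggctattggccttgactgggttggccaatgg
Plin1: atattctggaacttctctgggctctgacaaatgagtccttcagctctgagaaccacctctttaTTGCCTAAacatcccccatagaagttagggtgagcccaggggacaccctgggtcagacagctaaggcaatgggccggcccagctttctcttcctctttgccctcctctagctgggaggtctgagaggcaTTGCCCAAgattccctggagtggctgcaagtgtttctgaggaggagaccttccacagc
Cd36: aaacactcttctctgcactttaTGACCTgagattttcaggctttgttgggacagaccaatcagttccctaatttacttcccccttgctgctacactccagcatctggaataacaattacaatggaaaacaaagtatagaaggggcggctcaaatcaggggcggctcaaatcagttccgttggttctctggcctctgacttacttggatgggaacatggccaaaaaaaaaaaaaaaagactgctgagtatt
The repeat was in none of the 8 windows of the 5 genes and in 0.0335% of 32851 windows of this length. TTGCNNAA was found in Plin1, 187 and 58 bases before the start, in 1 of the windows of Cidec and in 1 of those of Pparg, and in 9.56% of all windows. AGGTCA was found in Cd36, 228 bases before the start, and in 2 windows of Pparg, and in 14% of all windows, and TATAAA in 1 window of Pparg and 12.4% of all. The Adipoq window held none of the 4. A match is a run of letters and not a site, and the windows do not reach the enhancers of these genes.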

How the data were processed

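RNA of 1 library per genotype was compared. The deposited FPKM values were taken as such because the submitters' processing notes list Cuffnorm and Cufflinks 2.2.1, beside STAR 2.5.2b, R 3.3.2 and the build mm9. What each tool did, which annotation served and whether the libraries were scaled to each other is not stated in the labels or notes. Per the labels' protocols, RNA with an integrity number above 7 was made into libraries with the ScriptSeq v2 kit. The deposited FPKM summed to 415537 in control and 530294 in the knockout-labelled library.

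Differences were computed as log2(FPKM + 1) with Python 3.11.15, numpy 2.4.6, pandas 2.3.3 and scipy 1.17.1, for genes at 1 FPKM or more in at least 1 library. No count model was run, and no test is possible with 1 library a group. Depth was estimated as the step, among 501 between 5000000 and 15000000 fragments, that put low FPKM of genes with a single GENCODE transcript of at least 2500 nt nearest to whole fragments of 200 nt. It put 81.3% of 160 and 75.3% of 174 values within 0.1 of a whole number. Depth assumes no further scaling, and fragments of a gene use its longest principal coding transcript. Fold calls and the step were tested on simulated data.

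The 10 genes and all lists were chosen with earlier results of these data known. Named genes are the 10, their relatives, from each pathway list the lowest and highest difference and the 2 highest in control, and from cell type lists the 2 highest. Other named genes, and the ratios between genes, were chosen after their values were seen. Values listed at 0 can be failed estimates. The alternatives were 2 other pseudocounts, 3 rescalings, 2 other minimums and 2 other fold thresholds.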

Additional observations from a re-analysis of the deposited data

How the results depend on the processing

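No paired analysis was possible because there is a single library of each genotype, which also leaves no replicate to omit. Under the 9 alternatives the number of the 10 genes past the threshold on the lower side ranged from 7 to 9, against 8, and none was past it on the higher side in any of them. Their median difference of -2.43 became -1.68 with a pseudocount of 5. Over all genes, 2060 lower and 2231 higher became 921 and 1323 with a pseudocount of 5, 3450 and 3464 at 1.5-fold, and 906 and 1298 at 3-fold, and when both libraries were scaled to sum to 1000000 the lower became 3330. Fewer or more genes pass by construction with another threshold, and a larger pseudocount shrinks low genes. Each of the 10 genes except Fabp5 kept its direction under all pseudocounts and rescalings, but for the lower genes this was fixed in advance. A pseudocount cannot change a sign. All 3 rescalings shifted the knockout-labelled library down, with medians of all genes of -0.33, -0.15 and -0.14. Only the sizes could vary. Differences ran from -6.96 to -5.01 for Car3, -4.88 to -2.57 for Adipoq and -5.58 to -1.33 for Plin1. They ran from -3.33 to -0.63 for Cidec, against -2.71 to -2.35 for Fabp4. Fabp5 ranged from -0.27 to 0.08. The median of the platelet list reversed to -0.039 with no minimum, where more low genes enter. Of 147 list medians over the alternatives 15 others moved by more than 1.5-fold. Genes with few fragments, Plin1 and Cidec above all, are limited by depth.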

Other observations

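Among 7379 genes at 10 FPKM or more in 1 library, leaving out small RNAs and predicted genes, the gene nearest to Adipoq in the plane of both log2(FPKM + 1) levels was Gpd1, at a distance of 0.34, followed by Zcchc5 (31.2 FPKM in control and 1.69 in the knockout-labelled library) and Lysmd2 (33.0 and 1.70). The genes nearest to Fabp4 were Gnas (2033 and 313 FPKM), Col3a1 (1481 and 391) and Rps26 (1865 and 433), at distances of 0.27 to 0.41. With 2 libraries such likeness rests on 2 values per gene. Other values of the lipid genes for a second look were Car8 at 0.330 and 19.6 FPKM, where most relatives were flat or lower, Cebpa at nearly the same level in both libraries beside Adipoq and Pparg, and Thrsp at 9.31 and 0.126.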
